A study of Mus musculus with 6 samples.

Results

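Transcripts of 36 genes for cell adhesion were followed in injured mouse spinal cord, namely subunits of integrins, chains of laminins and the molecules by which leukocytes and endothelium hold each other. The genes were taken by name from 29057 gene names in a table of isoform levels, and they had 157 isoforms that match or share splicing with an annotated transcript. The animals were C57BL/6 males, mice of an inbred strain, 8 weeks old, and spinal cord was taken from all. The TSCI group (traumatic spinal cord injury) had 3 libraries from mice whose cord was exposed by thoracic laminectomy and struck by a falling weight. The sham group had 3 libraries from mice that underwent the laminectomy, the opening of the vertebral arch, without the blow, so both groups carry the surgery. The labels name 48 mice in sets of 8 and do not say whether a library pooled a set, nor how long after surgery the cord was taken. The p-values therefore measure the spread between these libraries.

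Integrins are receptors made of an alpha and a beta subunit that tie the cytoskeleton to the surrounding matrix or to other cells. Itgb1 is the beta subunit of most receptors for matrix, while Itgb2 is made by leukocytes and pairs with Itgal, Itgam or Itgax. Laminins are trimers of an alpha, a beta and a gamma chain that build basement membranes, which in the cord lie around blood vessels and under the pia. During entry of leukocytes from blood, selectins on endothelium slow the cells, and Icam1 and Vcam1 then bind their integrins.

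The aligned bases implied by the deposited values ranged from 4.46 to 9.16 gigabases in TSCI libraries and from 4.80 to 8.20 gigabases in sham libraries. TSCI replicate 1 and sham replicate 1, both of sequencing lane 8, had 9.76% and 10.2% of their bases assigned to intronic isoforms, and the remaining libraries 1.98% to 3.83%. Sham replicate 2, the only library of lane 3, listed 2451 of the 16740 genes tested at 0, where the remaining libraries listed 409 to 762, and 8 of the 36 members were at 0 there. The median gene was 0.44 higher in TSCI than in sham on the log2(FPKM + 0.5) scale, and 69.9% of genes had a positive difference. FPKM, fragments per kilobase and depth, is a level per transcript length. Summed markers of neurons reached 329 to 695 FPKM in TSCI libraries and 241 to 767 FPKM in sham libraries, and those of oligodendrocytes 1383 to 5119 FPKM in TSCI and 878 to 6238 FPKM in sham, so markers of both were detected in all libraries.

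Of the 36 adhesion genes, 32 passed the filter of a mean of 0.5 FPKM over the 6 libraries. Itgb2, Itga5 and Itgam rose in TSCI, and no member fell, by limma at an adjusted p under 0.05. Over all tested genes 0.89% were called in either direction, 0.878% as higher and 0.0119% as lower. The 3 members are 2 subunits of the leukocyte integrin family and 1 matrix receptor subunit. Unadjusted p under 0.05 was reached by 11 members, all higher in TSCI, against 10.0% of all genes higher and 1.76% lower. Every TSCI library lay above every sham library for 12 of the 32 members, against 13.4% of all genes, and below it for 1, Lamc3, against 3.13%. The median log2 fold change of the 32 was 1.09, against 0.44 over all genes. Of the 32, 5 had a sham mean under 0.5 FPKM (Itgal, Itgax, Itgb7, Lama3 and Selp) and passed the filter through their TSCI libraries, so these shares are descriptions only. No member was called when TSCI replicate 1, 2 or 3, or sham replicate 2 or 3, was left out, and 10 were called without sham replicate 1. Without sham replicate 1 the calls over all genes also rose, to 1448 of 16429 tested, against 149 with all libraries. With another library left out they were 14 to 88. In cord tissue a change in the number of cells of a type and a change of RNA per cell cannot be told apart.

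**Figure D1:**
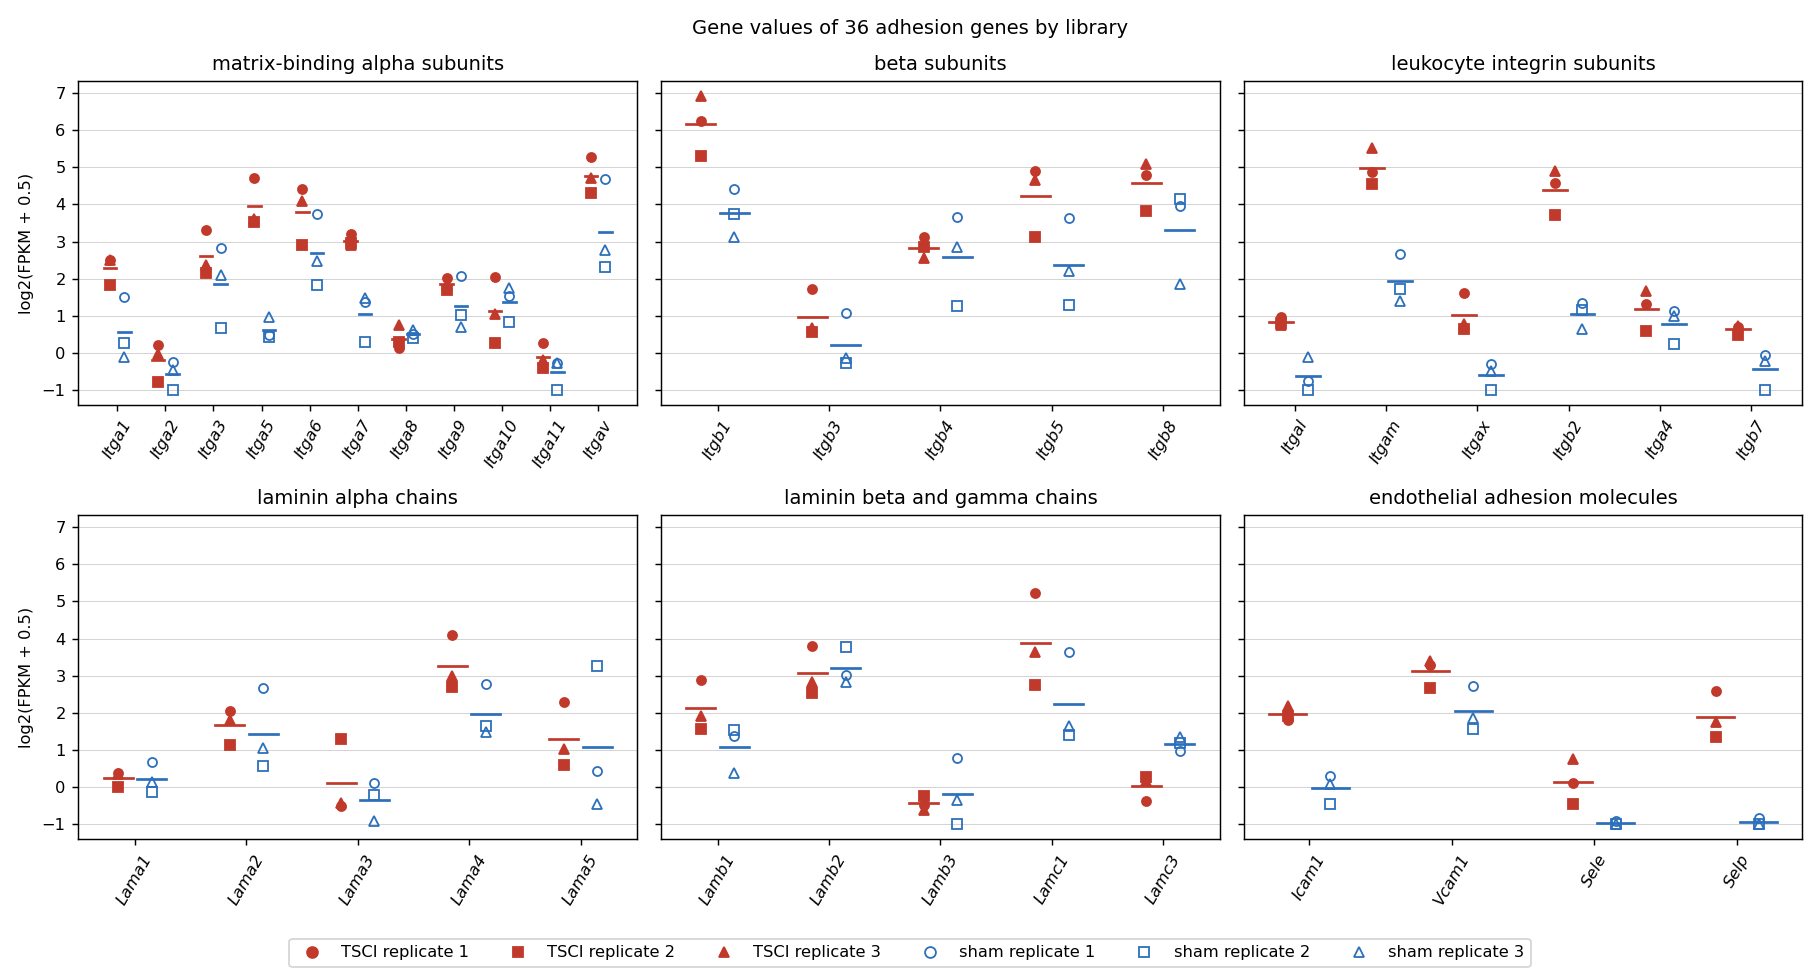
Level of each of the 36 adhesion genes as log2(FPKM + 0.5), in panels by role, with 1 point per library, TSCI (filled) left of sham (open), and bars at the mean of the log2 values. Itgb2, Itga5 and Itgam have TSCI points far above all sham points, while most laminin chains overlap.

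**Figure D2:**
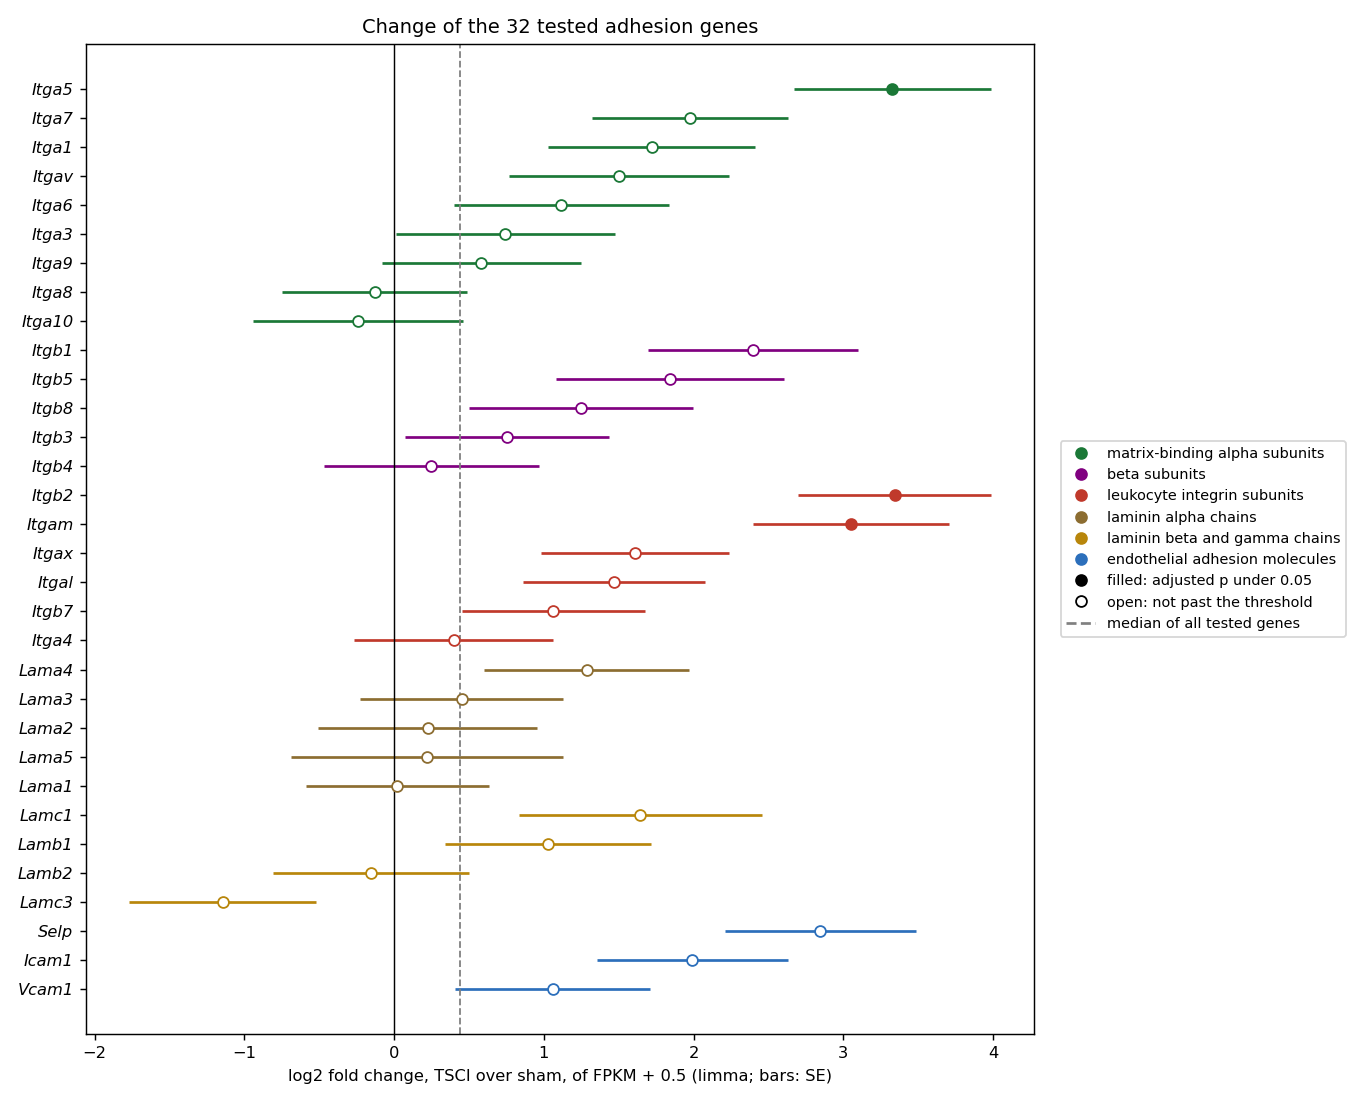
Log2 fold change of TSCI over sham for the 32 tested members, as points with standard errors from limma on log2(FPKM + 0.5), grouped by role. Filled points mark Itga5, Itgb2 and Itgam, and the dashed line is the median of all tested genes at 0.44.

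Of the 6 leukocyte integrin subunits, all tested, Itgb2 and Itgam rose, and the other 4 did not pass the threshold. Itgb2 (ENSMUSG00000000290, chr10:77530252-77565708, plus strand), the shared beta subunit, had 23.2, 12.7 and 29.3 FPKM in TSCI libraries, against 2.06, 1.72 and 1.07 FPKM in sham libraries. The lowest TSCI library lay above the highest sham library by a wide margin. Itgb2 rose by 3.34 ± 0.65 on the log2 scale (SE, limma adjusted p = 0.0280), which is 2.90 above the median of all genes. Itgam (ENSMUSG00000030786, chr7:128062640-128118491, plus strand), the alpha subunit of the complement receptor of macrophages, microglia and neutrophils, had 28.7, 23.1 and 45.4 FPKM in TSCI libraries, against 5.87, 2.83 and 2.12 FPKM in sham libraries. Here too the groups did not overlap, although sham replicate 1 was higher than the other sham libraries. Itgam rose by 3.05 ± 0.65 (limma adjusted p = 0.0434). Within lane 8 the log2 difference was 3.21 for Itgb2 and 2.20 for Itgam, and within lane 1 it was 3.66 and 3.65, from 1 sham library in each lane. The limma adjusted p of Itgb2 was 0.101, 0.0672 and 0.285 without TSCI replicates 1, 2 and 3, 0.0693 without sham replicate 2 and 0.131 without sham replicate 3. For Itgam it was 0.118, 0.108 and 0.362 without TSCI replicates 1, 2 and 3, 0.130 without sham replicate 2 and 0.207 without sham replicate 3. Both kept a log2 fold change of at least 2.78 in these fits. With no filter on low values, all class codes or class = isoforms only, the limma adjusted p was 0.187, 0.106 and 0.0707 for Itgb2 and 0.230, 0.126 and 0.0972 for Itgam. Itgam missed the threshold as well at a pseudocount of 0.1 (limma adjusted p = 0.0592), under quantile normalization (0.0548) and under median-ratio scaling (0.0566).

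The other alpha subunits that pair with Itgb2 were low. Itgax, carried by dendritic cells and activated microglia, had 2.57, 1.07 and 1.21 FPKM in TSCI libraries, against 0.310, 0 and 0.214 FPKM in sham libraries, with a log2 fold change of 1.61 ± 0.63 (limma adjusted p = 0.309). Itgal, the subunit used by lymphocytes and other leukocytes to bind Icam1, had 1.46, 1.24 and 1.18 FPKM in TSCI libraries, against 0.0882, 0 and 0.426 FPKM in sham libraries. Neither passed the test, and in both the groups were apart with sham replicate 2 listed at 0. Itgam made up 87.7%, 90.9% and 95.0% of the summed Itgal, Itgam and Itgax FPKM in TSCI libraries, against 93.6%, 100% and 76.8% in sham libraries. So Itgam gave most of the RNA of these 3 subunits in all 6 libraries, and its share overlapped between groups. Summed over these 3 alpha subunits, the level was 1.41, 2.0 and 1.63 times that of Itgb2 in TSCI libraries and 3.05, 1.65 and 2.58 times in sham libraries. Itga4, which pairs with Itgb1 or Itgb7 and binds Vcam1, had 1.99, 1.01 and 2.66 FPKM in TSCI libraries, against 1.70, 0.690 and 1.49 FPKM in sham libraries, and overlapped. Its partner Itgb7 had 1.11, 0.900 and 1.16 FPKM in TSCI libraries, against 0.458, 0 and 0.358 FPKM in sham libraries. Itgb7 stayed short of the threshold (limma adjusted p = 0.540).

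Markers of leukocytes were read beside these subunits. The 5 macrophage markers summed to 156 to 434 FPKM in TSCI libraries and 5.79 to 7.91 FPKM in sham libraries, and 3 of them were called higher. Those of microglia summed to 173 to 322 FPKM in TSCI libraries and 45.9 to 74.9 FPKM in sham libraries, with none of 5 called. Those of neutrophils summed to 100.1 to 434 FPKM in TSCI libraries and 14.3 to 244 FPKM in sham libraries. Their groups overlapped, since the sum in sham replicate 2 was above those of TSCI replicates 1 and 3. Of these 5 markers 3 were tested and none was called, and only Ly6g was at 0 in all sham libraries. T cell markers were low, at 1.78 to 2.41 FPKM in TSCI libraries and 0.499 to 6.64 FPKM in sham libraries. B cell markers were at 0.780 to 1.63 FPKM in TSCI libraries and 0.282 to 1.60 FPKM in sham libraries. Erythrocyte markers summed to 6949, 136645 and 43599 FPKM in TSCI libraries, against 2371, 30099 and 21545 FPKM in sham libraries, and overlapped. The part of these cell types in the result was not tested.

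The promoter of Itgam, 1 of the called members with an entry in the RefSeq promoter table (GRCm38.p6), is shown as an example of a myeloid gene. These are the 250 bases before its start, at chr7:128062390-128062639 on the plus strand, with GAGGAA, a core letter pattern bound by the myeloid factor PU.1, in capitals on either strand (reverse TTCCTC).
Itgam: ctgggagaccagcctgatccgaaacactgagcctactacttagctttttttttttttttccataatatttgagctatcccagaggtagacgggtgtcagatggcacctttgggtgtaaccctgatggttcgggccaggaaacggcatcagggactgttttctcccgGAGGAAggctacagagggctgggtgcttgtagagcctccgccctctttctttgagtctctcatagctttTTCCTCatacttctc
The pattern stood 84 and 15 bases before the start. It was present in 23.3% of all 32851 promoters of that length and in 12 of the 24 members with an entry, where any entry of a member counted. The pattern was not particular to leukocyte subunits: Itgax had 0 matches, while Lama2, Lama5, Lamb1 and Lamb2 had 1 each. A match is a description of letters and not a site, and the pattern was chosen with the sequences in view.

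Among the 11 alpha subunits of matrix receptors, 9 were tested, Itga5 rose, and no other member passed the threshold. Itga5 (ENSMUSG00000000555, chr15:103344286-103366763, minus strand), which pairs with Itgb1 as the main receptor for fibronectin, had 25.8, 11.03 and 11.8 FPKM in TSCI libraries, against 0.893, 0.840 and 1.47 FPKM in sham libraries. The groups were far apart, and the 3 sham libraries lay close together as summed. The annotated transcript alone had 13.6, 6.20 and 9.71 FPKM in TSCI libraries, against 0.893, 0 and 0.492 FPKM in sham libraries. For that transcript, too, the groups did not overlap. Nearly all the rest of TSCI replicate 1 came from an assembled 7-exon isoform, at 0.833 FPKM or less in the other libraries. All 0.840 FPKM of sham replicate 2 came from another assembled isoform. Itga5 rose by 3.33 ± 0.66 on the log2 scale (SE, limma adjusted p = 0.0297), with log2 differences of 4.24 within lane 8 and 2.59 within lane 1. Without TSCI replicates 1, 2 and 3 the limma adjusted p was 0.147, 0.0831 and 0.220, and without sham replicates 2 and 3 it was 0.0833 and 0.0928. In these fits its log2 fold change was 2.95 to 3.54. Its call was also lost with no filter on low values (limma adjusted p = 0.210), median-ratio scaling (0.0596), quantile normalization (0.0768), all class codes (0.126) and class = isoforms only (0.0707).

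Itga7, a laminin receptor subunit best known from muscle, had 8.67, 7.33 and 7.08 FPKM in TSCI libraries, against 2.10, 0.737 and 2.28 FPKM in sham libraries. The groups did not overlap, with a log2 fold change of 1.98 ± 0.65 (limma adjusted p = 0.209). Itga1, a collagen and laminin receptor subunit, had 5.21, 3.04 and 5.22 FPKM in TSCI libraries, against 2.37, 0.716 and 0.426 FPKM in sham libraries, and its log2 fold change was 1.72 ± 0.69 (limma adjusted p = 0.328). Sham replicate 1 was the highest sham library for Itga1 and came near the lowest TSCI library. An assembled 2-exon isoform gave 2.07 and 2.27 FPKM of Itga1 in TSCI replicates 2 and 3, and 0 in the other libraries. The annotated transcript alone had 5.21, 0.970 and 2.95 FPKM in TSCI libraries, and so overlapped sham replicate 1. With class = isoforms only the log2 fold change of Itga1 was 1.05 (limma adjusted p = 0.661). Itgav, the alpha subunit of receptors for vitronectin and of activators of TGF-beta, was the most abundant of these subunits. It had 38.5, 19.1 and 25.7 FPKM in TSCI libraries, against 25.4, 4.46 and 6.37 FPKM in sham libraries. Its groups overlapped through sham replicate 1, and its log2 fold change was 1.50 ± 0.74 (limma adjusted p = 0.452). Without sham replicate 1 the limma adjusted p was 0.0461 for Itga7, 0.0450 for Itga1 and 0.0347 for Itgav. Itga6, a laminin receptor subunit, had 7.01 to 20.8 FPKM in TSCI libraries and 3.07 to 13.0 FPKM in sham libraries. Itga3, Itga8, Itga9 and Itga10 overlapped between groups and had log2 fold changes of 0.74, -0.13, 0.58 and -0.24. Itga2 and Itga11, subunits of collagen receptors, were at most 0.698 FPKM in TSCI libraries and at most 0.342 FPKM in sham libraries, and neither was tested.

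Shares within a family do not change when a library is multiplied by 1 factor. Itga5 took 21.9%, 19.7% and 15.1% of the summed FPKM of the 11 matrix alpha subunits in TSCI libraries, against 1.54%, 5.76% and 5.89% in sham libraries. Itga10, a collagen receptor subunit of cartilage, took 3.10%, 1.26% and 2.03% in TSCI libraries, against 4.11%, 8.74% and 11.4% in sham libraries. Itgav kept the largest share in TSCI libraries, at 32.7%, 34.2% and 33.1%, against 43.7%, 30.6% and 25.5% in sham libraries. So the groups did not overlap for Itga5 or Itga10 and did for Itgav. Of the remaining matrix alpha subunits only Itga8 was also apart, narrowly, at no more than 1.54% in TSCI libraries and no less than 1.61% in sham libraries. The shares of the rest overlapped. With 3 libraries against 3, an exact permutation test of a share cannot give a p under 0.1, and none is given.

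Of the 5 beta subunits outside the leukocyte group, none passed the limma threshold, and 2 reached an unadjusted p under 0.05, both higher in TSCI. Itgb1 (ENSMUSG00000025809, chr8:128685654-128733200, plus strand), the most abundant member of all 36, had 75.9, 38.8 and 121 FPKM in TSCI libraries, against 20.8, 12.8 and 8.28 FPKM in sham libraries. All TSCI libraries were above all sham libraries, with TSCI replicate 2 the lowest of its group. The log2 fold change was 2.40 ± 0.70 (SE, limma adjusted p = 0.142), at 1.84 within lane 8 and 2.98 within lane 1. Itgb1 passed the threshold without sham replicate 1 (limma adjusted p = 0.0177). It made up 53.0%, 56.9% and 65.1% of the FPKM of the 5 beta subunits in TSCI libraries, against 33.9%, 37.3% and 36.6% in sham libraries. That share, too, did not overlap between groups as summed. In sham replicate 2, 12.5 of the 34.3 FPKM of these 5 subunits came from 1 assembled 2-exon isoform of Itgb8. That isoform was at 0 in all other libraries and lowers the Itgb1 share there, so the separation depends on counting it.

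Itgb5, a partner of Itgav, had 29.2, 8.15 and 24.9 FPKM in TSCI libraries, against 11.9, 1.96 and 4.15 FPKM in sham libraries. The groups overlapped between TSCI replicate 2 and sham replicate 1, and the log2 fold change was 1.84 ± 0.76 (limma adjusted p = 0.341, and 0.0282 without sham replicate 1). In TSCI replicate 1, 22.5 of the 29.2 FPKM came from 1 assembled isoform with new junctions, which was at 0.0247 FPKM or less in the other TSCI libraries. Itgb8, which with Itgav activates TGF-beta and is made by astrocytes, had 27.2, 13.7 and 33.7 FPKM in TSCI libraries, against 15.1, 17.3 and 3.10 FPKM in sham libraries. It overlapped, with a log2 fold change of 1.25 ± 0.75 (limma adjusted p = 0.560). In sham replicate 2, 12.5 of the 17.3 FPKM of Itgb8 came from 1 assembled 2-exon isoform, at 0 in all other libraries. In TSCI replicate 1, 23.7 of the 27.2 FPKM came from another assembled isoform, at 0.0166 FPKM or less in the other libraries. Itgb3, the beta subunit of platelets and of growing vessels, had 0.970 to 2.80 FPKM in TSCI libraries and 0.337 to 1.61 FPKM in sham libraries. Itgb4, the partner of Itga6, had 5.36 to 8.21 FPKM in TSCI libraries and 1.91 to 12.1 FPKM in sham libraries.

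The laminins differed less. None of the 5 alpha chains was called by limma or reached an unadjusted p under 0.05, none kept the groups apart, and their median log2 fold change was 0.22, under the median of all genes. Lama4, the alpha chain of vessel walls, was the most abundant, with 16.5, 5.96 and 7.46 FPKM in TSCI libraries, against 6.37, 2.61 and 2.32 FPKM in sham libraries. Only TSCI replicate 2 was below the highest sham library, and the log2 fold change was 1.29 ± 0.69 (limma adjusted p = 0.502). Lama2, the chain of muscle, nerve and astrocyte basement membranes, had 3.63, 1.68 and 3.03 FPKM in TSCI libraries, against 5.92, 0.985 and 1.59 FPKM in sham libraries. In sham replicate 1, 3.36 of the 5.92 FPKM came from 1 assembled isoform, at 0 in the other libraries. The log2 fold change of Lama2, 0.22, turned negative under other scalings, at -0.14 with median-ratio scaling and -0.29 with quantile normalization. Lama3, an epithelial chain, had 0.204, 1.95 and 0.243 FPKM in TSCI libraries, against 0.588, 0.364 and 0.0330 FPKM in sham libraries. Its positive log2 fold change of 0.45 thus rested on TSCI replicate 2. There 1.87 of the 1.95 FPKM came from 1 assembled isoform of 589 bases, at 0 in the other libraries. Lama5, a chain of mature vessels and epithelia, had 4.36, 1.01 and 1.55 FPKM in TSCI libraries, against 0.861, 9.12 and 0.231 FPKM in sham libraries. In sham replicate 2, 8.88 FPKM of Lama5 came from 1 single-exon fragment of 209 bases, which was at 0 in the other 5 libraries. Lama1, a chain of the pial surface, had 0.501 to 0.802 FPKM in TSCI libraries and 0.409 to 1.09 FPKM in sham libraries.

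Of the beta and gamma chains 4 of 5 were tested, and none was called by limma or reached an unadjusted p under 0.05. Lamc1, the gamma chain of most laminins, had 37.3, 6.27 and 11.98 FPKM in TSCI libraries, against 11.9, 2.17 and 2.64 FPKM in sham libraries. The groups overlapped through sham replicate 1, with a log2 fold change of 1.64 ± 0.81 (limma adjusted p = 0.454, and 0.0406 without sham replicate 1). An isoform of 1447 bases gave 18.6, 2.77 and 6.36 FPKM of these levels in TSCI libraries, against 1.86, 0 and 0 FPKM in sham libraries. Lamc3, a gamma chain found in brain and other tissues, was the only tested member lower in every TSCI library, with 0.275, 0.705 and 0.629 FPKM in TSCI libraries, against 1.45, 1.79 and 2.05 FPKM in sham libraries. Its log2 fold change was -1.14 ± 0.62 (limma adjusted p = 0.515), with -1.33 within lane 8 and -1.13 within lane 1. Of the summed Lamc1 and Lamc3 FPKM, Lamc3 was 0.732%, 10.1% and 4.99% in TSCI libraries, against 10.8%, 45.2% and 43.7% in sham libraries. These shares came close to each other between TSCI replicate 2 and sham replicate 1 but did not overlap.

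Lamb1, a widely made beta chain, had 6.86, 2.47 and 3.26 FPKM in TSCI libraries, against 2.09, 2.39 and 0.800 FPKM in sham libraries. The groups were apart by a small gap, and the log2 fold change was 1.03 ± 0.69 (limma adjusted p = 0.612). Lamb2, the beta chain of synapses and mature vessels, had 5.33 to 13.5 FPKM in TSCI libraries and 6.64 to 13.3 FPKM in sham libraries, where 12.03 FPKM of sham replicate 2 came from an isoform of 683 bases. As a share of the 3 beta chains, Lamb1 was 33.3%, 30.3% and 32.4% in TSCI libraries, against 19.0%, 15.2% and 10.3% in sham libraries. Lama4 was 64.7%, 53.7% and 57.1% of the 5 alpha chains in TSCI libraries, against 43.0%, 19.4% and 48.7% in sham libraries. For both chains the shares in the groups did not overlap as summed. In sham replicate 2, however, 8.88 of the 13.5 FPKM of the alpha chains came from the Lama5 fragment of 209 bases. The Lamb2 isoform of 683 bases gave 12.03 of the 15.7 FPKM of its beta chains. Both lower the shares of that library. Of the 2.39 FPKM of Lamb1 there, however, 1.98 FPKM came from an isoform of 424 bases, which raises its share. So the separation of Lama4 depends on counting the Lama5 fragment, and that of Lamb1 on which short isoforms are counted. Lamb3, an epithelial chain, was not tested and had 0.158 to 0.346 FPKM in TSCI libraries and 0 to 1.22 FPKM in sham libraries.

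**Figure D3:**
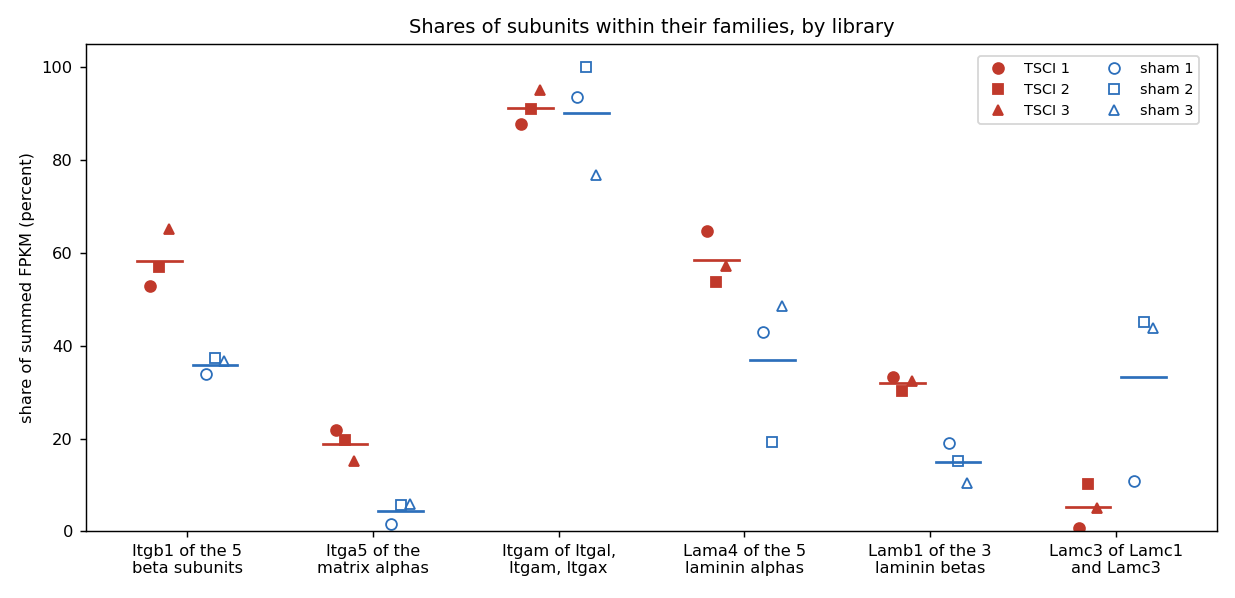
Share of selected members in the summed FPKM of their family, in percent, with 1 point per library, bars at the group means, and TSCI left of sham. The groups are apart for Itga5, Itgb1, Lama4, Lamb1 and Lamc3, and the share of Itgam overlaps. In sham replicate 2 the shares of Itgb1, Lama4 and Lamb1 are lowered by single isoforms of Itgb8, Lama5 and Lamb2. The share of Lamb1 there is also raised by a short isoform of its own. Of the shares not drawn, those of Itga8, Itga10, Lamb2 and Lamc1 are also apart, and the rest overlap.

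Markers of cells that make basement membrane were read beside the laminins, and none was called. Those of fibroblasts summed to 324 to 427 FPKM in TSCI libraries and 94.7 to 150 FPKM in sham libraries, and those of pericytes and smooth muscle to 32.4 to 76.6 FPKM in TSCI and 12.7 to 34.5 FPKM in sham. Skeletal muscle markers, from tissue around the cord, summed to 0.229 to 13.7 FPKM in TSCI libraries and 2.33 to 94.4 FPKM in sham libraries, and those of Schwann cells to 18.8 to 54.5 FPKM in TSCI and 24.9 to 30.8 FPKM in sham. Their part in the results was not tested.

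The endothelial molecules were low in sham cord, and of the 3 tested none was called by limma and 2 reached an unadjusted p under 0.05. Selp (ENSMUSG00000026580, chr1:164115264-164150026, plus strand), the selectin stored in platelets and endothelium, had 5.49, 2.07 and 2.89 FPKM in TSCI libraries, against 0.0635, 0 and 0 FPKM in sham libraries. It was near or at 0 in all sham libraries and above 2 FPKM in all TSCI libraries, and the log2 fold change came to 2.84 ± 0.64 (SE; limma adjusted p = 0.0542). That value missed the threshold narrowly, and without sham replicate 1 it was 0.0137. The log2 difference of Selp was 3.41 within lane 8 and 2.56 within lane 1. Sele, the selectin that activated endothelium makes, was below the filter, with 0.576, 0.235 and 1.19 FPKM in TSCI libraries, against 0.0289, 0 and 0 FPKM in sham libraries. Its groups did not overlap either, and it was not tested.

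Icam1 (ENSMUSG00000037405, chr9:21015985-21028817, plus strand), the ligand of Itgal and Itgam with Itgb2, had 2.99, 3.26 and 4.08 FPKM in TSCI libraries, against 0.724, 0.234 and 0.564 FPKM in sham libraries. The groups were apart, and the TSCI libraries lay closer together in proportion than the sham libraries, with a log2 fold change of 1.99 ± 0.64 (limma adjusted p = 0.192), at 1.51 within lane 8 and 1.96 within lane 1. Vcam1, the ligand of Itga4 with Itgb1, was the most abundant of the 4, with 9.31, 5.82 and 10.0 FPKM in TSCI libraries, against 6.07, 2.49 and 3.17 FPKM in sham libraries. Its groups overlapped between TSCI replicate 2 and sham replicate 1, and the log2 fold change was 1.06 ± 0.65 (limma adjusted p = 0.567). Endothelial markers summed to 26.9 to 57.3 FPKM in TSCI libraries and 8.17 to 30.1 FPKM in sham libraries, and platelet markers to 40.6 to 68.1 FPKM in TSCI libraries and 5.98 to 22.5 FPKM in sham libraries, with no marker of either list called by limma. Their part in the result was not tested.

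The promoters of Icam1 and Selp are shown because both genes kept the groups apart and their endothelial induction through NF-kappaB is textbook knowledge. Each is the 250 bases before the RefSeq start (GRCm38.p6, plus strand), at chr9:21015690-21015939 for Icam1 and chr1:164115014-164115263 for Selp. Capitals mark GGNNNTTCC, a kB-type pattern, on either strand (reverse GGAANNNCC).
Icam1: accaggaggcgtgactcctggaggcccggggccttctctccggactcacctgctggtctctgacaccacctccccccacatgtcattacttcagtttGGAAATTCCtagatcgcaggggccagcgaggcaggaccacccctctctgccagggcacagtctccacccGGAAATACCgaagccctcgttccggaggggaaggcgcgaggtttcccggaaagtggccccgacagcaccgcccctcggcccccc
Selp: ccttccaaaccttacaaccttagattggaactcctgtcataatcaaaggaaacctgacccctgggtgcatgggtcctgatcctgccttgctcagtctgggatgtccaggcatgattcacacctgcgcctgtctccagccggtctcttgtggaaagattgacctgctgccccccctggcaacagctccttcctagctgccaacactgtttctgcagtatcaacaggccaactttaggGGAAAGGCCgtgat
The Icam1 matches began 153 and 84 bases before the start, and the Selp match 14 bases before it. This pattern was present in 15.7% of all 32851 promoters and in 6 of the 24 members with an entry. It shares the letters TTCC with the pattern searched in Itgam, so that the matches of both can overlap. These letters were likewise chosen with the sequences in view, and a match is no evidence of binding.

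Partners and effectors of these receptors were read from 3 lists. Of 13 matrix and receptor partners outside the member list 10 were tested, none was called by limma, 3 reached an unadjusted p under 0.05 as higher (10.0% over all genes), and their median log2 fold change was 1.11 (0.44 over all genes). Hspg2, the basement membrane proteoglycan perlecan, had 16.8, 7.15 and 7.33 FPKM in TSCI libraries, against 4.45, 0.865 and 2.08 FPKM in sham libraries (log2 fold change 1.96 ± 0.71, limma adjusted p = 0.264). Fn1, fibronectin and so the ligand of Itga5, had 266, 33.9 and 75.9 FPKM in TSCI libraries, against 36.2, 12.6 and 16.6 FPKM in sham libraries (log2 fold change 2.14 ± 0.83, limma adjusted p = 0.304). Hspg2 kept the groups apart, while for Fn1 the highest sham library passed the lowest TSCI library. Vtn, vitronectin, was the 1 tested gene of this list below sham in every TSCI library, with 18.6, 13.5 and 22.0 FPKM in TSCI libraries, against 25.7, 37.5 and 33.1 FPKM in sham libraries. Its log2 fold change was -0.82 ± 0.63 (limma adjusted p = 0.654).

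Of 20 adaptors and kinases that link integrins to actin 19 were tested, none was called by limma, and 8 reached an unadjusted p under 0.05 as higher, against 10.0% of all genes. Their median log2 fold change was 1.21, against 0.44 over all genes, and 9 kept all TSCI libraries above all sham libraries, against 13.4%. Flna, filamin, which binds beta subunits and actin, had 90.6, 45.4 and 64.1 FPKM in TSCI libraries, against 12.7, 5.78 and 6.49 FPKM in sham libraries (log2 fold change 2.95 ± 0.66, limma adjusted p = 0.0542). Fermt3, the kindlin of blood cells that activates Itgb2, had 9.62, 9.60 and 14.7 FPKM in TSCI libraries, against 1.07, 0.0767 and 2.46 FPKM in sham libraries (log2 fold change 3.06 ± 0.73, limma adjusted p = 0.0692). Both kept the groups well apart and stayed just short of the threshold.

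Of 16 other genes of leukocyte adhesion 13 were tested. None was called by limma, and 7 reached an unadjusted p under 0.05 as higher, against 10.0% of all genes. All 13 had a positive log2 fold change, against 69.9% of all genes, and the median was 1.42, against 0.44. Cd44, the hyaluronan receptor of leukocytes and reactive glia, had 47.3, 14.4 and 34.2 FPKM in TSCI libraries, against 6.16, 7.56 and 2.44 FPKM in sham libraries (log2 fold change 2.43 ± 0.70, limma adjusted p = 0.135). Cdh5, the cadherin of endothelial junctions, had 22.8, 5.48 and 8.39 FPKM in TSCI libraries, against 3.67, 0.329 and 0.786 FPKM in sham libraries (log2 fold change 2.71 ± 0.79, limma adjusted p = 0.139). For both, all TSCI libraries were above all sham libraries.

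Isoforms of the same member were not always the same in both groups. Itgam in TSCI libraries was split between ENSMUST00000106242, with 16.5, 12.3 and 29.4 FPKM, and ENSMUST00000064821, with 11.2, 8.06 and 8.49 FPKM. In sham libraries the first was listed at 0 throughout, and the second had 5.24, 2.83 and 0.971 FPKM. The annotated transcripts have 4649 and 4682 bases and 30 exons each, and how reads were divided between such near copies is uncertain. The gene sum does not depend on that division. Itgb1 came almost entirely from 1 isoform, with 96.7% of its FPKM in TSCI and 96.9% in sham.

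In exonic circular RNAs a later splice site is joined back to an earlier one. Circular RNAs, exonic or intronic, were listed for 14 of the 36 members in the deposited circRNA table. There were 31, of which 26 were exonic and 5 intronic, with 4 each from Itgam, Itgav, Itga6 and Itgb8. Itgb2, Itga5, Itgb1, Icam1 and Selp had none in the table. By edgeR none of the 31 was called at an adjusted p under 0.05, against 0.0% of 17363 circRNAs tested. At an unadjusted p under 0.05, 12 were higher in TSCI and 0 lower, against 4.64% higher and 7.01% lower over all circRNAs. DESeq2 called 5 of the 31 as higher, against 1.15% higher and 0.299% lower over all. In CPM, counts scaled to library size, every TSCI library was above every sham library for 16 of the 31 and below it for 1, circRNA9447 of Itga10, against 10.2% and 7.68% over all circRNAs. A positive log2 fold change was found for 25 of the 31, against 50.4% of all. Their median log2 fold change was 1.21, while that of all circRNAs was 0.01. Several of these circRNAs overlap in 1 host and the deposited counts are fractional, so they are not separate measurements. The sources used here do not define a circRNA read, and whether reads of the linear host are among them was not tested.

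The 4 circRNAs of Itgam are shown by their back-splice junctions, since the host is a called member. Each line gives the 20 bases before the junction in lower case and the 20 bases after it in capitals, read from the GENCODE M21 transcript (GRCm38) at the exon bounds in the table. The first 2 share their first exon, the seventh of the 30 of Itgam, and so the bases after the junction.
circRNA995: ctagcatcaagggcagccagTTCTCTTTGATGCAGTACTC
circRNA14128: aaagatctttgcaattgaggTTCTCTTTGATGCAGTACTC
circRNA996: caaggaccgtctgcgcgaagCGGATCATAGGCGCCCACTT
circRNA8831: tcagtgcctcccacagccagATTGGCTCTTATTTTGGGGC
The circRNA circRNA995 joins exon 12 back to exon 7 (chr7:128080246-128086072), circRNA14128 exon 9 to exon 7, circRNA996 exon 16 to exon 15 and circRNA8831 exon 14 to exon 13. The deposited counts of circRNA995 were 340, 369 and 742 in TSCI libraries, against 89.8, 0 and 22.5 in sham libraries. Those of circRNA996 were 175, 290 and 524 in TSCI libraries, against 41.8, 0 and 29.5 in sham libraries. All 4 were at 0 in sham replicate 2 and higher in every TSCI library than in every sham library. The log2 fold change was 3.97 ± 1.07 for circRNA995, 3.70 ± 1.01 for circRNA14128, 3.83 ± 1.05 for circRNA996 and 3.45 ± 1.10 for circRNA8831 (SE, edgeR adjusted p = 0.422 for each). DESeq2 gave adjusted p-values of 0.0109 for circRNA995, 0.0110 for circRNA14128, 0.0128 for circRNA996 and 0.0585 for circRNA8831, so that the last was not called. The linear Itgam level was also higher in all TSCI libraries, with a log2 fold change of 3.05.

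Itgav gave the most counted circRNAs. The intronic ciRNA78 and ciRNA295 begin at the same base (chr2:83803337) and end at 83803712 and 83803922, so that the shorter lies within the longer. Counts of ciRNA295 were 537, 732 and 1607 in TSCI libraries, against 340.5, 137 and 112.5 in sham libraries. In CPM they were 109, 191 and 204 in TSCI libraries, against 40.4, 31.2 and 27.5 in sham libraries. The groups did not overlap, with a log2 fold change of 2.34 ± 0.40 (SE, edgeR adjusted p = 0.320), and for ciRNA78 it was 2.69 ± 0.46 (edgeR adjusted p = 0.320). The exonic circRNA3234, which joins exon 4 of Itgav back to exon 2, had 679, 537 and 1144 counts in TSCI libraries, against 631, 79 and 114 in sham libraries. Its junction is shown for its mean count, which was the highest among the exonic ones.
circRNA3234: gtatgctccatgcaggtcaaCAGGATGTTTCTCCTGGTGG
Its log2 fold change was 1.80 ± 0.56 (edgeR adjusted p = 0.422). Of Itgb8, circRNA5910 had 561, 259 and 967 counts in TSCI libraries, against 901, 230 and 176 in sham libraries, and circRNA13549 had 328, 266 and 688 counts in TSCI libraries, against 577, 133 and 172 in sham libraries. Both overlapped between groups, with log2 fold changes of 0.58 and 0.66.

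**Figure D4:**
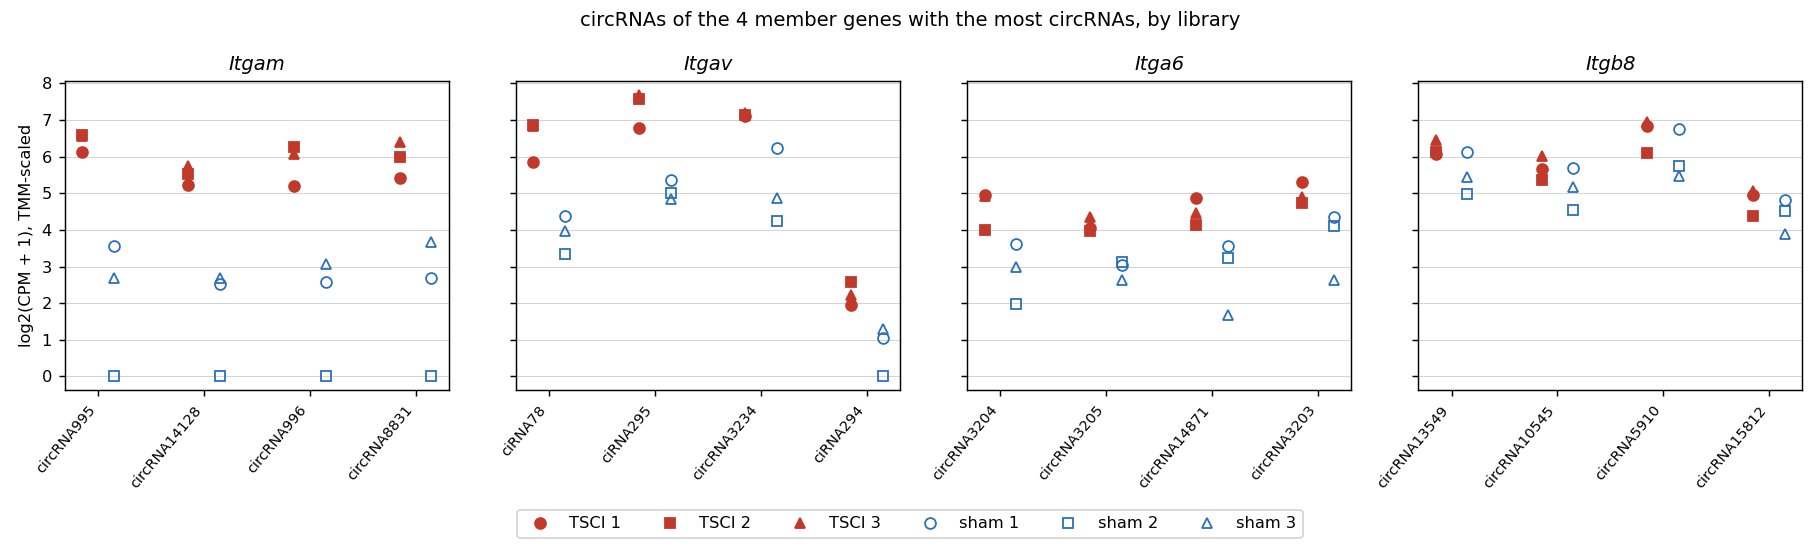
Level of the circRNAs of Itgam, Itgav, Itga6 and Itgb8, 4 each, as log2(CPM + 1) after TMM scaling, with 1 point per library and TSCI (filled) left of sham (open). The 4 circRNAs of Itgam are higher in every TSCI library than in any sham library and at 0 in sham replicate 2, while those of Itgb8 overlap.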

How the data were processed

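Total RNA of spinal cord, in 3 TSCI and 3 sham libraries, was sequenced after depletion of ribosomal RNA, with a stranded kit, per the labels' protocols. HISAT2, StringTie and TopHat are named, per the submitters' processing notes, and the sources used here give no version, genome build or circRNA caller. The authors deposited an isoform table with FPKM and coverage (signal) for 194125 isoforms, and a circRNA table with estimated counts and FPKM. Only 33.8% of the deposited circRNA counts were whole (within 1e-06), so they were treated as estimated counts and rounded. The aligned bases of a library follow from the fixed ratio of its FPKM to its coverage.

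FPKM were summed per gene name over isoforms with class code =, e, o, c or j, so without intronic, antisense and nearby isoforms. Genes with a mean of at least 0.5 FPKM over the 6 libraries (16740 genes) were tested on the log2(FPKM + 0.5) scale with limma 3.58.1 (R 4.3.3, variance trend, two-sided), with Benjamini-Hochberg adjustment over all of them and a threshold of 0.05. That scale understates the change of low genes, and an exact 0 can be a failed estimate. For circRNAs with 10 or more counts in all and found in 3 or more libraries, the quasi-likelihood test of edgeR 4.0.16 with TMM scaling was used, and DESeq2 1.42.0 beside it. All 31 member circRNAs passed that filter. Functions were tested on simulated data. Standard errors follow the moderated fits, with 10.0 prior degrees of freedom for genes.

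The members and lists were chosen with earlier results of these data known. Named in full are the members past the threshold, up to 3 of lowest p and the most abundant of each of 6 role groups, 2 of lowest p per pathway list, and the circRNAs of lowest p and highest mean count (5 each). Others with their values were chosen after those were seen, and so were the family shares. Of the Ensembl isoforms found in GENCODE M21 94.6% had the same coordinates, so positions are given as GRCm38. Other pseudocounts, filters, scalings, class codes, lane 8 and the replicate number as covariates, and each library left out were tried.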

Additional observations from a re-analysis of the deposited data

How the results depend on the processing

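The count of called members was 3. It was 0 with no filter on low values, 0 with all class codes, 0 with class = isoforms only, 1 (Itgb2) with median-ratio scaling, 1 (Itgb2) with quantile normalization, 5 with lane 8 as a covariate and 7 with the replicate number as a block, and 0 to 10 with 1 library left out. Over all genes the count was 149, and under the same settings it was 0, 24, 43, 74, 61, 644 and 963. It was 616 without the lane 8 libraries. With 1 library left out it was 14 to 1448, lowest without TSCI replicate 3 and highest without sham replicate 1. Other pseudocounts, a mean of at least 1 FPKM and robust moderation left both counts within 1.5 times. All calls of members were higher in TSCI. Whether replicate numbers pair the libraries was not settled. Deviations from the group mean correlated at 0.49, 0.28 and 0.08 for replicates 1, 2 and 3, while TSCI replicate 2 correlated best with sham replicate 3, at 0.36. With 3 libraries a group, and lanes that some libraries share, these correlations cannot decide it. The 12 members with groups apart became 22 without the lane 8 libraries and 12 to 22 with 1 library left out, in alternatives chosen after seeing the data. Fewer libraries separate more genes of any kind: the share over all tested genes was 13.4% with all libraries, 45.4% without lane 8 and 14.4% to 40.0% with 1 library left out. Median-ratio scaling brought the median of all genes to 0.07 and quantile normalization to -0.03, against 0.44 as deposited. The log2 fold change of Lama2 was 0.22, and it was -0.14 with median-ratio scaling, -0.29 with quantile normalization, -0.84 with all class codes and from -0.21 without sham replicate 2 to 0.85 without sham replicate 1. For circRNAs edgeR called 0 under all its settings, except 1 of all circRNAs with RLE normalization, and DESeq2 called 5 of the member circRNAs and 251 of all. Of 338 comparisons of the 19 named members with an alternative, 290 kept direction and side of the threshold, 29 lost and 15 gained the call, and 4 reversed. The cause of these changes was not tested. Depth limits low members: Itga2, Itga11, Lamb3 and Sele were too low to test, and with 3 libraries a group a miss of the threshold does not show that levels were alike.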
